A study of Mus musculus with 6 samples.

Results

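The 49 genes described here drive DNA replication and cell division: 8 G1 cyclins and E2F factors, 15 S phase genes and 26 mitotic genes. They were taken by exact gene name from the probes of a mouse Agilent array, where they have 65 of 55681 probes and 49 of 36406 gene names. The arrays compared satellite cells, which are resident muscle stem cells, from adult mice (6 months) with those from young mice, on 3 arrays each. Young replicates 1 and 3 came from mice of 3 months and young replicate 2 from mice of 2 months, so that the youngest age is held by 1 array. All mice were C57BL/6 males, with no allele or treatment named in the labels, and the cells were sorted from dissociated muscle as integrin a7+ and CD34+ and negative for CD31, CD45, CD11b and Sca1. Each array carried the amplified, Cy3-labelled RNA of 1 sample, and all 6 arrays lay on 1 slide. Its row 1 held 1 adult and 2 young arrays and its row 2 held 2 adult arrays and 1 young array, so rows and groups were not balanced. The labels call the samples biological replicates without giving the number of mice behind each, so the p-values measure only the spread between these samples.

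D-type cyclins and their kinases inactivate the retinoblastoma pocket proteins in G1, which frees E2F factors to switch on the genes of DNA synthesis. Origins are licensed when Cdc6 and Cdt1 load the Mcm helicase on DNA, and later the mitotic genes, many of them held down in quiescent cells by the DREAM complex at a promoter motif named the cell cycle homology region, build the spindle and part the chromosomes. Satellite cells of resting adult muscle are mostly quiescent, whereas those of growing juvenile muscle still divide and supply nuclei to the fibres.

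Levels are log2 signals relative to the 75th percentile of each array, so a level of 0 equals that percentile. Differences are adult minus young on the log2 scale, with the standard error of limma's fit over all probes. A probe was tested where it was well above background on at least 3 of 6 arrays and was called where the adjusted p (Benjamini-Hochberg over 48414 probes) was under 0.05. By this rule 16 of the 59 member probes tested were lower in adult cells and 4 were higher (27.1% and 6.78%). Over all probes tested 6.39% were lower and 17.1% higher. That split over all probes depended on the scaling, with 25.2% lower and 9.96% higher under median scaling and 7.84% and 6.77% under quantile normalization, whereas more members were lower than higher under each. The 16 probes stand for 12 genes (Ccnd1, Ccnd3, E2f2, Mcm2, Mcm3, Cdt1, Rrm2, Mki67, Birc5, Cdca3, Prc1 and Ect2), and the 4 for Ccnd2, Tyms, Cenpf and Nuf2. A further 30 genes had no call and 3 genes (Ccne2, Ccna2 and Aurkb) had no probe that could be tested. With all 65 probes in the fit and no filter on dim signal the counts were again 16 and 4, against 4.02% lower and 14.3% higher over all probes. Of the 20 called probes, Cdca3, Cenpf and Nuf2 probe b passed the filter only through the group where they were bright, so their p-values rest on signal not above background in the other group. In a fit of only those probes well above background on all 6 arrays, 16 of 44 member probes were lower and 2 higher, against 11.9% and 18.2% of 38123 probes.

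The sequences below show what is read by the probes of Mki67, Nuf2 and Gmnn, which differed within the gene, and by the Cenpf probe, which was not above background in young cells. Other genes with such probes are described without sequence. Each line gives the first 30 of 60 bases of the probe, 5′ to 3′, with the mouse mm9 interval of the whole probe.
Mki67 probe a, chr7:142881591-142881650, minus strand: atactactgctactgcctgagtttaaggaa
Mki67 probe b, chr7:142884764-142884823, minus strand: cagtgaacctaagccaagggtaactcgtgg
Nuf2 probe a, chr1:171428989-171429048, minus strand: atctttgtaaacttgaaaagtgctctggag
Nuf2 probe b, chr1:171428269-171428328, minus strand: ccctacatatctgattgctgttgtttaggt
Cenpf, chr1:191464978-191465037, minus strand: gagcagtatctgaatagaaagcaaaaggct
Gmnn probe a, chr13:24843715-24843774, minus strand: ttgtcagtgtcagatataaactgtatatta
Gmnn probe b, chr13:24854006-24854065, plus strand: aggacaaaagagactctcactagcggcaaa
The starts of the Mki67 probes lie 3173 bases apart, those of the Nuf2 probes 720 bases and those of the Gmnn probes 10291 bases, on opposite strands. Both Mcm3 probes start 17 bases apart and share a run of 29 bases, shown in capitals, so they are 1 measurement rather than 2.
Mcm3, run shared by both probes: ATTAGACTAGTATGTATTGTTGACCTAAA
Of the 65 probes, 55 lie on their gene's strand, and the gene strand of the other 10 was not used here. An mm9 gene annotation was not used here, so exon or UTR positions are not given.

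Among the G1 genes the D-type cyclins split. Ccnd1 and Ccnd3, which activate Cdk4 and Cdk6 in response to growth signals, fell in adult cells, while Ccnd2, the third D-type cyclin, rose. E2f2, an activating E2F factor, fell as well. Over all 10 G1 probes the median difference was -0.26 and 7 were negative, against a median of 0.40 over all probes of the array.

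E2f2 read 0.89, 1.73 and 1.35 on the adult arrays and 3.24, 3.41 and 3.47 on the young arrays. The highest adult array lay well under the lowest young one, and the difference was -2.05 ± 0.26 SE, 4.14-fold lower (limma adjusted p = 0.0171, n = 3 each). Ccnd1 read 2.28, 3.48 and 2.50 in adult cells, against 4.17, 4.48 and 4.67 in young cells. Adult replicate 2 was the highest of its group and still under every young array, at a difference of -1.69 ± 0.36 SE (limma adjusted p = 0.0317). Ccnd3 was measured by a pair of probes that start 312 bases apart. Its probe a gave 1.28, 1.29 and 1.15 in adult cells and 2.42, 2.60 and 2.45 in young cells, a difference of -1.25 ± 0.18 SE (limma adjusted p = 0.0194). Its probe b gave 1.74, 1.86 and 1.75 in adult cells and 2.55, 2.83 and 2.83 in young cells, a difference of -0.96 ± 0.19 SE (limma adjusted p = 0.0282). The spread within each group was small for both probes, and the groups did not overlap.

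Ccnd2 ran the other way. It read -0.55, -0.34 and 0.10 in adult cells, against -2.54, -1.44 and -2.45 in young cells, so every adult array was above every young one and the difference was 1.88 ± 0.37 SE (limma adjusted p = 0.0281). The other G1 genes did not pass. E2f1, another activating E2F, differed by -0.51 ± 0.29 SE (limma adjusted p = 0.211), and E2f8, a repressing E2F, by 0.31 ± 0.54 SE with 2 arrays of each group above background. Ccne1, which with Cdk2 starts S phase, differed by 0.09 ± 0.57 SE and -0.02 ± 0.87 SE on its probes a and b. Ccne2, its close relative, was well above background on no array and was not tested.

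**Figure D1:**
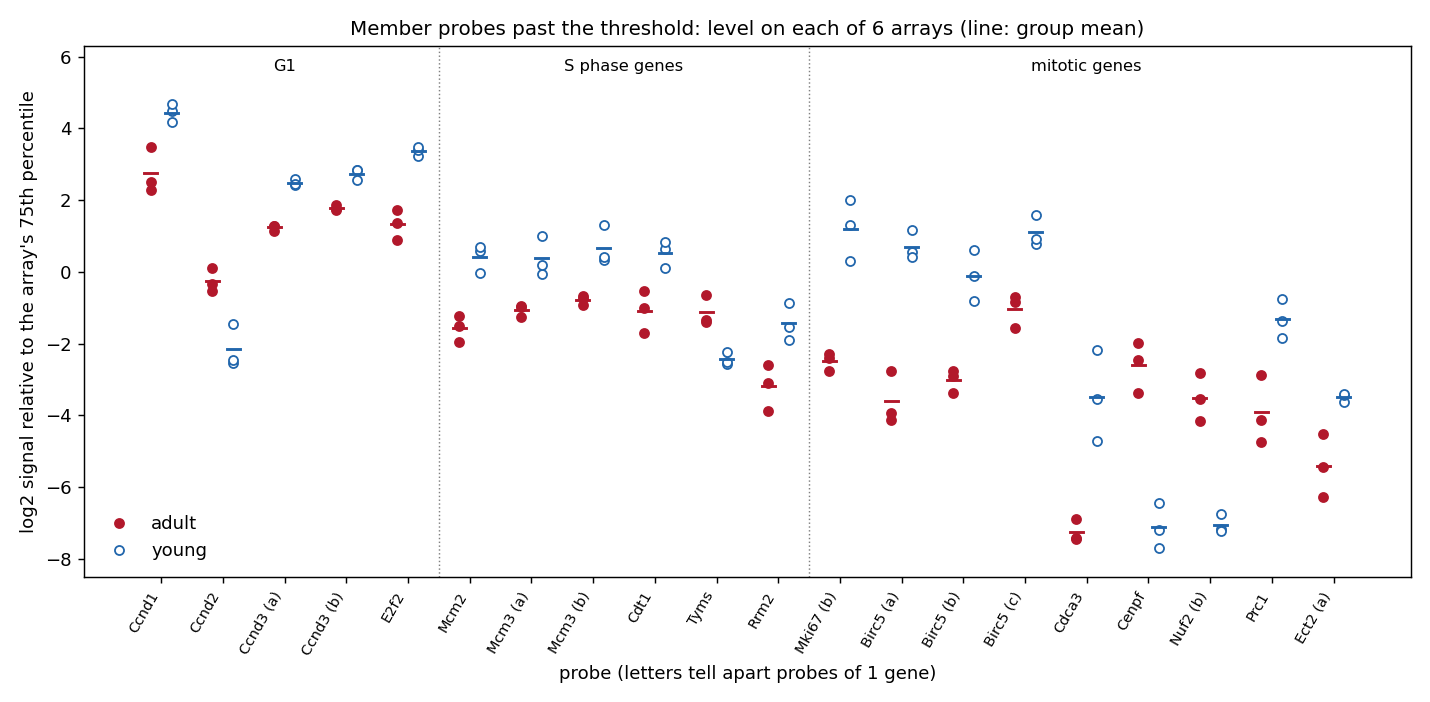
Level on each array of the 20 member probes past the threshold, in log2 units relative to the array's 75th percentile, with filled points for adult cells, open points for young cells and a line at each group mean (n = 3 each). Adult and young points do not overlap for any of these probes, and adult points lie above young ones for Ccnd2, Tyms, Cenpf and Nuf2 probe b.

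Among the S phase genes Mcm2 and Mcm3, subunits of the replicative helicase, Cdt1, which loads it on origins, and Rrm2, a ribonucleotide reductase subunit, fell in adult cells. They make up 5 of 17 probes tested, with both overlapping Mcm3 probes counted, and the other helicase subunits and the loader Cdc6 had no call. Tyms, which makes thymidylate for DNA synthesis, was the 1 probe called higher. The median over all 18 S phase probes was -0.91 and 14 were negative.

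Mcm2 read -1.24, -1.51 and -1.96 in adult cells and -0.04, 0.59 and 0.68 in young cells. Its difference of -1.98 ± 0.30 SE, 3.95-fold lower, had the smallest p of the S phase probes (limma adjusted p = 0.0209). Mcm3 probe a gave -0.94, -0.99 and -1.27 in adult cells and -0.07, 1.0 and 0.19 in young cells. Young replicate 2 stood above the other young arrays here, and the difference was -1.44 ± 0.32 SE (limma adjusted p = 0.0331). Probe b, which shares 29 bases with it, gave -0.67, -0.72 and -0.92 in adult cells, 0.32, 1.30 and 0.41 in young cells and a difference of -1.45 ± 0.31 SE (limma adjusted p = 0.0313). With the array row as a block neither was called (limma adjusted p = 0.0604 and 0.0559).

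The other helicase subunits moved less or varied more. Mcm6 read 0.24, 0.36 and -0.18 in adult cells and 0.87, 1.96 and 1.01 in young cells, at -1.14 ± 0.35 SE (limma adjusted p = 0.0594). Mcm7 differed by -0.82 ± 0.27 SE (0.0720) and Mcm5 by -1.20 ± 0.58 SE (0.155) in the same limma fit. For these 3 genes every adult array lay under every young array, but none passed the test. Mcm4 read 2.35, 1.74 and 1.21 in adult cells and 1.89, 2.52 and 2.24 in young cells, so its groups overlapped, at -0.45 ± 0.35 SE.

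Cdt1 gave -0.52, -1.02 and -1.71 in adult cells, against 0.64, 0.84 and 0.12 in young cells, with no overlap and a difference of -1.62 ± 0.37 SE (limma adjusted p = 0.0347). Geminin (Gmnn), which binds and inhibits Cdt1, had probes on opposite strands that differed in sign. Probe a was above background on 1 adult array and all 3 young arrays. It read -4.95, -7.62 and -5.06 in adult cells and -3.71, -2.20 and -3.56 in young cells, -2.72 ± 0.82 SE (limma adjusted p = 0.0574). Probe b, annotated to a cDNA clone on the plus strand, does not read the strand that probe a reads, although it bears the same gene name. It was above background on 2 adult arrays and no young array and was not tested. Set against the dimmest detected probe of each young array, probe b was 1.25-fold higher in adult cells. That is not a firm bound, because the adult mean takes in replicate 3, which was not above background. Cdc6, the other loader, also had probes of opposite sign and neither passed. Its probe a, with 3 adult and 2 young arrays above background, read -2.48, -2.50 and -1.08 in adult cells and -3.15, -3.24 and -6.46 in young cells, 2.26 ± 0.97 SE (limma adjusted p = 0.123). Young replicate 3 was far under the others. Probe b, above background on 1 adult and 2 young arrays, differed by -1.01 ± 0.64 SE. Cdc45, which joins the helicase at firing, differed by 0.41 ± 0.31 SE.

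The genes of nucleotide supply did not move together. Rrm2, the regulated subunit of ribonucleotide reductase, read -3.09, -3.88 and -2.59 in adult cells and -1.55, -0.87 and -1.90 in young cells. All adult values were below all young values, at -1.75 ± 0.42 SE (limma adjusted p = 0.0381, and 0.0691 with the array row as a block). Rrm1, the large subunit, overlapped between groups at -0.29 ± 0.35 SE. Tyms read -1.33, -1.39 and -0.63 in adult cells and -2.56, -2.23 and -2.50 in young cells, a difference of 1.31 ± 0.27 SE (limma adjusted p = 0.0300, and 0.0544 with the array row as a block). Each adult array was above each young one. Tk1, the thymidine salvage kinase, differed by -0.66 ± 0.33 SE and Pcna, the sliding clamp of the polymerases, by -0.56 ± 0.27 SE, and neither passed.

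**Figure D2:**
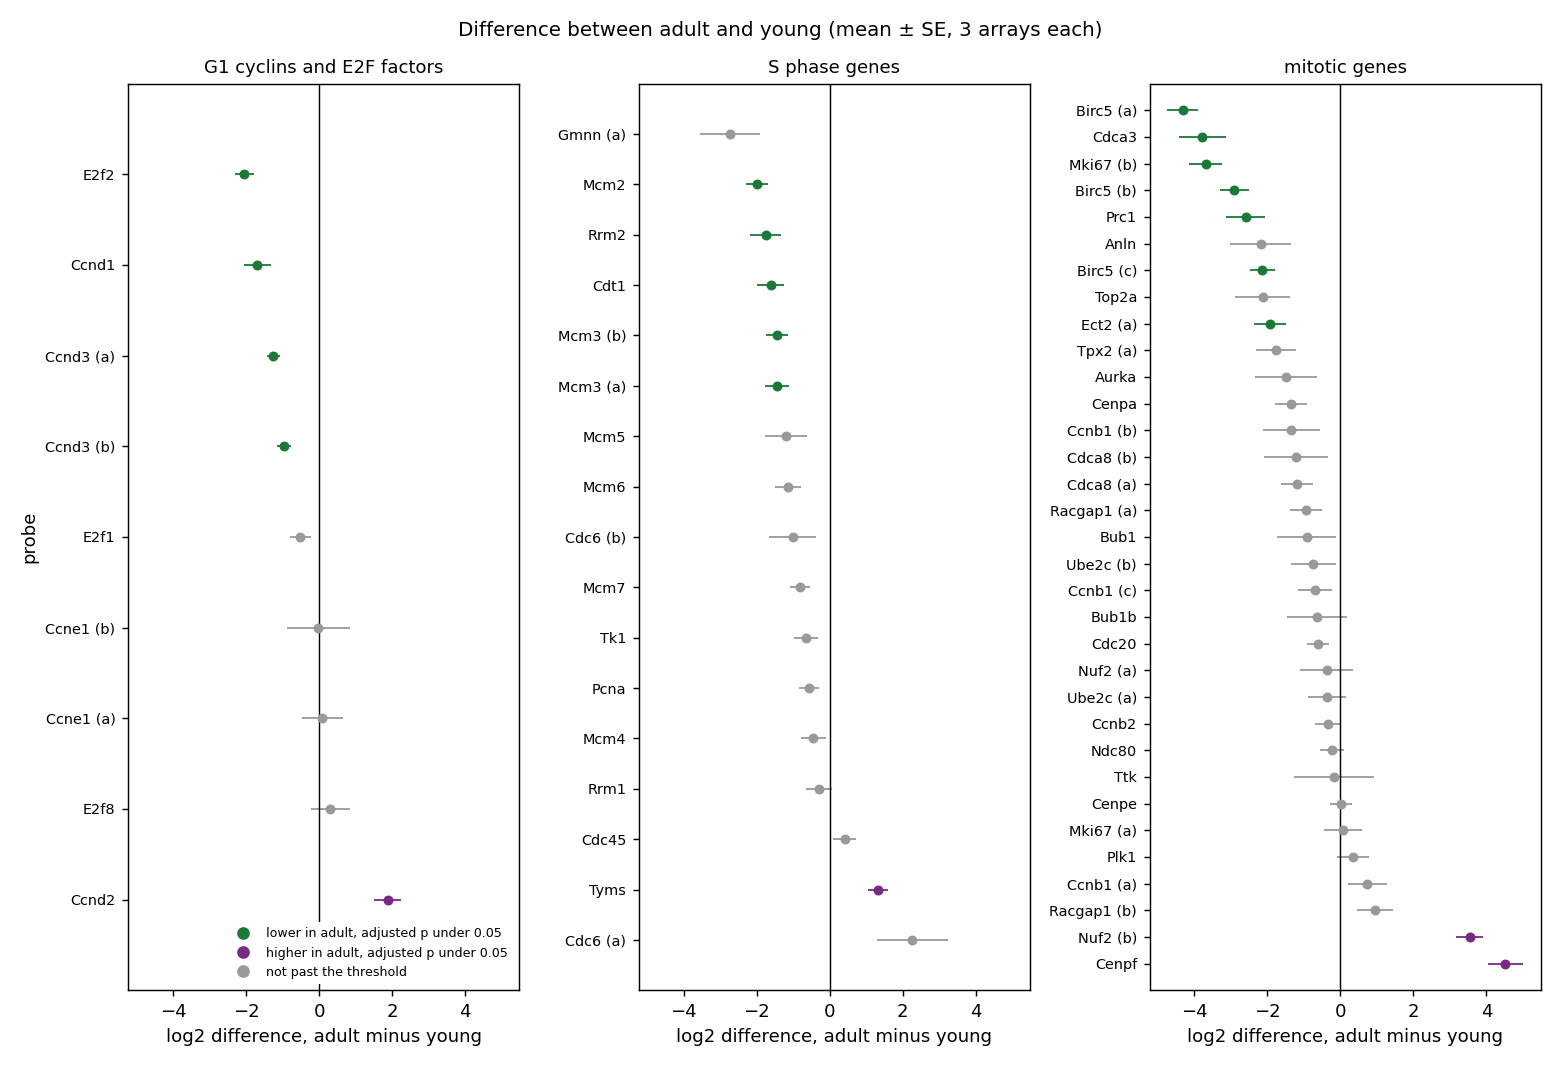
Difference between adult and young cells (log2, adult minus young, mean ± SE of limma's fit, n = 3 each) for the 59 member probes tested, by role. Green marks probes lower and purple marks probes higher in adult cells past the threshold, with Birc5 probe a at -4.31 in the mitotic panel. The points of Cenpf, Nuf2 probe b, Cdca3 and Top2a are set against signal not above background in 1 group and are not measured folds.

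Among the mitotic genes Birc5 (survivin), a subunit of the chromosomal passenger complex, fell on all 3 of its probes, and Mki67, the Ki-67 proliferation antigen, fell on 1 of 2. Cdca3, Prc1 and Ect2, which act at mitotic entry and at cytokinesis, were also lower, while Cenpf and 1 probe of Nuf2, both kinetochore proteins, were higher. In all, 7 of 33 probes tested were lower and 2 higher, and over all 37 mitotic probes the median was -0.75 with 27 negative.

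Birc5 probe a, the most upstream of the 3, read -2.77, -4.12 and -3.94 in adult cells and 0.54, 1.16 and 0.41 in young cells. This 19.9-fold lower level, -4.31 ± 0.42 SE, had the smallest p of any member (limma adjusted p = 0.0102). Probe b, 2945 bases downstream, gave -2.89, -2.77 and -3.38 in adult cells and -0.12, 0.62 and -0.82 in young cells, -2.91 ± 0.41 SE (limma adjusted p = 0.0191). Probe c, 5866 bases downstream of probe a, gave -1.57, -0.83 and -0.71 in adult cells and 0.79, 1.59 and 0.92 in young cells, -2.14 ± 0.34 SE (limma adjusted p = 0.0223). No adult array reached any young array on any of the 3 probes.

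The Mki67 probes, whose sequences stand above, gave different answers although both were well above background on all 6 arrays. Probe b read -2.29, -2.77 and -2.39 in adult cells and 1.30, 2.01 and 0.30 in young cells. The groups were far apart there, at -3.69 ± 0.45 SE (limma adjusted p = 0.0156). Probe a read -1.43, -0.39 and -0.64 in adult cells and -0.73, -0.06 and -1.88 in young cells, with the groups fully mixed and a difference of 0.07 ± 0.53 SE (limma adjusted p = 0.929). The sign of probe a turned with the scaling: it was -0.17 with quantile normalization and -0.47 with median scaling.

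Prc1, which bundles the microtubules of the central spindle, read -4.74, -4.12 and -2.87 in adult cells and -1.37, -0.76 and -1.83 in young cells. The difference was -2.59 ± 0.54 SE (limma adjusted p = 0.0303, and 0.0507 with the array row as a block), with 2 adult and 3 young arrays above background. Ect2, the exchange factor that activates RhoA at the cleavage furrow, read -6.28, -5.44 and -4.52 in adult cells and -3.63, -3.42 and -3.40 in young cells on probe a, -1.93 ± 0.45 SE (limma adjusted p = 0.0358). It was above background on 1 adult and 3 young arrays there, and its probe b was above background on none. Cdca3, which helps to trigger mitotic entry, was well above background on all 3 young arrays and on no adult array. It read -6.90, -7.46 and -7.42 in adult cells and -3.55, -2.17 and -4.72 in young cells, and was at least 3.38-fold lower in adult cells (limma adjusted p = 0.0238). That p-value rests on adult signal not above background. For probes that were not well above background in 1 group, the fold is a bound: the mean of the bright group is set against a floor in the dim group. That floor is the dimmest detected probe of each array, or the probe in question where it is brighter. Such a bound holds only for the main scaling and this floor. Under the alternatives the log2 difference nearest 0 was -1.24 for Cdca3, -0.74 for Top2a, 0.997 for Cenpf and 0.42 for Nuf2 probe b.

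Cenpf and Nuf2 probe b were the mirror image, well above background on all 3 adult arrays and on no young array. Cenpf, a kinetochore and nuclear matrix protein, read -2.46, -1.98 and -3.36 in adult cells and -7.20, -6.45 and -7.71 in young cells. By the same bound it was at least 6.88-fold higher in adult cells (limma adjusted p = 0.0117). That p-value rests on young signal not above background, as does that of Nuf2 probe b. Nuf2, a subunit of the Ndc80 complex that grips microtubules, read -2.83, -4.15 and -3.53 in adult cells and -7.17, -6.75 and -7.22 in young cells on probe b. This was at least 3.67-fold higher (limma adjusted p = 0.0119), and Nuf2 probe b kept its call in 4 of 6 other scalings. Its probe a read -3.14, -5.24 and -3.40 in adult cells and -3.44, -2.65 and -4.54 in young cells, with the groups mixed and a difference of -0.38 ± 0.72 SE (limma adjusted p = 0.693). Ndc80, the partner of Nuf2, differed by -0.23 ± 0.33 SE, and Cenpe, a kinetochore motor, by 0.02 ± 0.30 SE.

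Several mitotic genes were lower in size but did not pass. Tpx2, a spindle assembly factor, read -4.48, -2.71 and -3.14 in adult cells and -1.73, -1.01 and -2.29 in young cells on probe a, -1.77 ± 0.55 SE (limma adjusted p = 0.0619). Its probe b was above background on no array. Cenpa, the centromeric histone variant, differed by -1.36 ± 0.44 SE (limma adjusted p = 0.0666), and its adult arrays all lay under its young arrays, as those of Tpx2 probe a did. Top2a, the topoisomerase that untangles sister chromatids, was above background on 3 young arrays and on no adult array. It was at least 1.80-fold lower in adult cells (limma adjusted p = 0.0830). Anln (anillin, a scaffold of the contractile ring) differed by -2.18 ± 0.84 SE (limma adjusted p = 0.0962), with 1 adult and 3 young arrays above background. Ccna2, the S and G2 cyclin, was above background on 2 young arrays and on no adult array, and was not tested. Against the same kind of floor it was 1.79-fold lower in adult cells. That is not a firm bound, because the young mean takes in replicate 1, which was not above background. Aurkb, the kinase of the passenger complex that holds Birc5, was above background on no array.

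The remaining mitotic genes had groups that overlapped or probes that disagreed. The 3 probes of Ccnb1, the cyclin of mitotic entry, differed by 0.74 ± 0.52 SE, -1.34 ± 0.77 SE and -0.70 ± 0.47 SE. Racgap1, the partner of Ect2 at the central spindle, gave -0.94 ± 0.44 SE on probe a and 0.94 ± 0.49 SE on probe b, although these start only 50 bases apart. Neither passed (limma adjusted p = 0.147 and 0.176). Cdca8, another passenger subunit, gave -1.18 ± 0.44 SE and -1.22 ± 0.88 SE, and Ube2c, the E2 enzyme of the anaphase-promoting complex, -0.36 ± 0.52 SE and -0.75 ± 0.62 SE. The mitotic kinases Aurka, Plk1, Bub1, Bub1b (BubR1) and Ttk (Mps1) differed by -1.49, 0.34, -0.93, -0.64 and -0.17, none past the threshold. Ccnb2, a B-type cyclin, differed by -0.33 and Cdc20, the activator of the anaphase-promoting complex, by -0.62, also without a call.

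**Figure D3:**
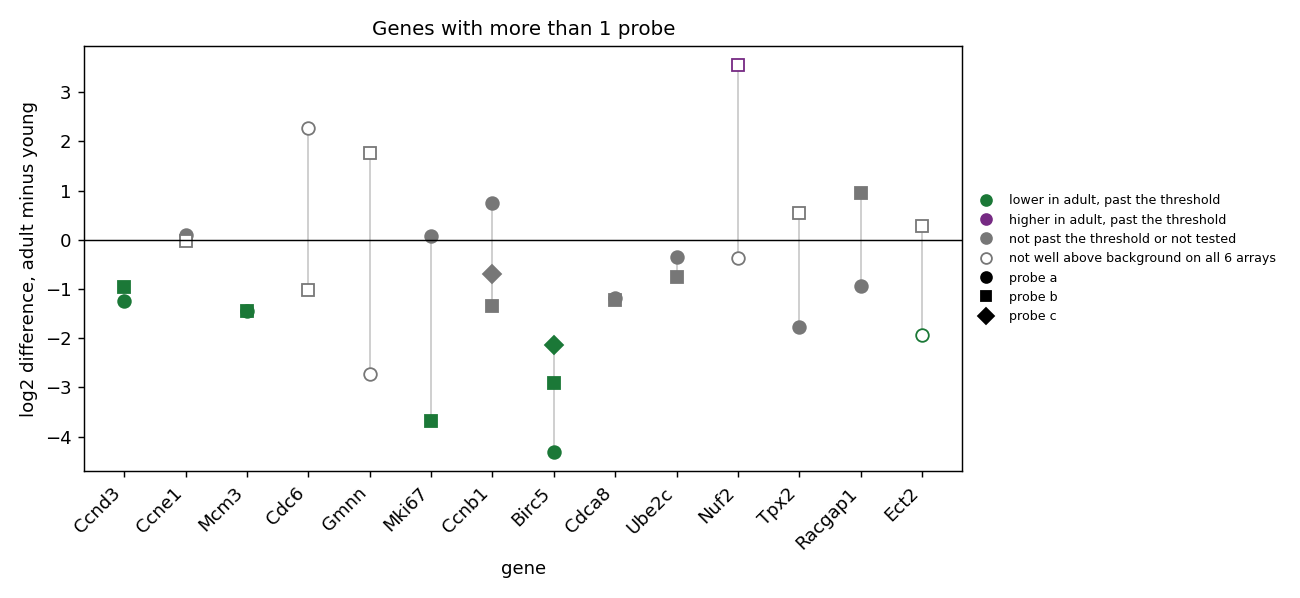
Difference between adult and young cells (log2, adult minus young) for each probe of the 14 genes with more than 1 probe, with open markers where a probe was not well above background on all 6 arrays. All probes of Ccnd3, Mcm3 and Birc5 were lower past the threshold, whereas the probes of Mki67 and Nuf2 stand far apart. The Mcm3 probes overlap in sequence and are not separate measurements.

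More than 1 probe could be tested for 11 genes. In 5 of these the probes had 1 sign, and all probes of Ccnd3, Mcm3 and Birc5 were called lower. The Mcm3 probes overlap in sequence, so they are not separate measurements. In the other 6 (Ccne1, Cdc6, Mki67, Ccnb1, Nuf2 and Racgap1) the signs differed, although those of both Ccne1 probes, Mki67 probe a and Nuf2 probe a turned in some alternatives. Mki67 and Nuf2 each had 1 tested probe called and another not. Across the 65 probes 48 differences were negative and 17 positive, with a median of -0.75. Every adult array lay below every young array for 25 probes (38.5%, against 17.9% of all probes) and above for 6 (9.23%, against 31.8%). The 39 tested probes without a call ranged from -2.72 to 2.26, 30 of them negative.

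Brightness bears on these counts, because dim probes of the whole array tended to be higher in adult cells. With the tested probes cut into 4 equal bins of brightness, the dimmest bin had a median difference over all probes of 1.38, with 0.76% lower and 27.3% higher. In the next bin it was 0.56, with 2.31% lower and 19.7% higher, and in the one after that -0.01, with 7.33% lower and 12.8% higher. In the brightest bin it was -0.33, with 15.2% lower and 8.51% higher. The members had medians of -0.97, -0.65, -0.70 and -1.05 from the dimmest bin to the brightest, over 14, 18, 19 and 8 probes. Lower calls numbered 2, 2, 8 and 4 of these, and Cenpf and Nuf2 probe b were the 2 higher calls of the dimmest bin. Of the 44 member probes well above background on all 6 arrays, 13 were called lower and 2 (Ccnd2 and Tyms) higher.

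Detection of the members overlapped between the groups. Of the 65 member probes 49, 53 and 57 were well above background on adult replicates 1, 2 and 3, and 55, 58 and 55 on young replicates 1, 2 and 3. In percent these were 75.4, 81.5 and 87.7 in adult cells and 84.6, 89.2 and 84.6 in young cells. Over all probes the shares were 85.4, 89.4 and 89.7 percent on adult arrays and 74.6, 82.5 and 77.4 percent on young arrays, so there the adult arrays were the higher ones. By role the detected probes numbered 7, 9 and 9 in adult and 9, 9 and 8 in young cells of 10 for G1, and 16, 16 and 17 in adult and 16, 17 and 16 in young cells of 18 for S phase. For the mitotic genes they were 26, 28 and 31 in adult and 30, 32 and 31 in young cells of 37, so adult replicates 1 and 2 were the low ones. Summed over the members, the linear signal was 35.0 to 42.7 times the 75th percentile on adult arrays and 74.2 to 99.1 times on young arrays, without overlap. By role the sums were 13.8 to 22.3 in adult and 39.9 to 50.4 in young cells for G1 genes, 9.57 to 13.3 and 15.2 to 25.5 for S phase genes, and 7.90 to 10.1 and 10.9 to 25.4 for mitotic genes. Sums follow the brightest probes, such as Ccnd1 and E2f2, already called lower. Median levels of all members overlapped, at -2.48, -2.47 and -2.14 in adult and -1.73, -1.18 and -2.29 in young cells. Those of G1 genes (-0.96, -0.56 and -0.17 against -1.31, -0.49 and -1.43) and of S phase genes overlapped too. Only those of the mitotic genes did not (-2.85, -2.77 and -3.22 against -1.86, -1.69 and -2.59). In such bulk RNA, fewer dividing cells and less of these RNAs per cell cannot be told apart.

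**Figure D4:**
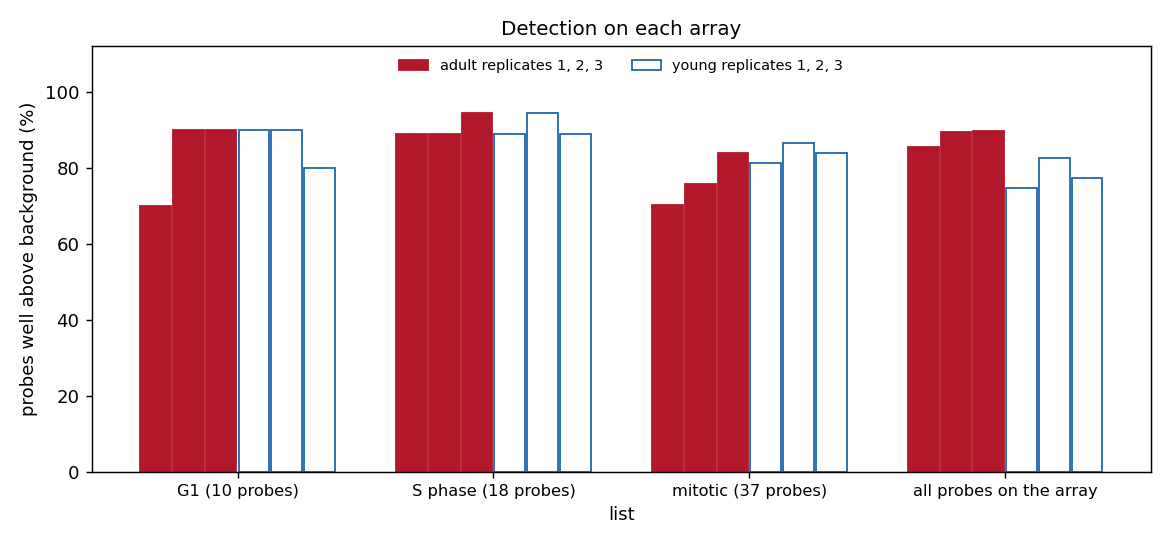
Share of probes well above background on each array, in percent, for the 3 groups of member genes and for all probes, with filled bars for adult and open bars for young replicates. Over all probes the adult bars (85.4 to 89.7) stand above the young bars (74.6 to 82.5), and for the mitotic genes the lowest bars are adult replicates 1 and 2.

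The young arrays differed among themselves on these genes. Young replicate 2, the 2-month sample, was the highest young array for 48 of the 65 member probes (73.8%), against 36.0% of all probes. It was highest for 7 of 10 G1, 15 of 18 S phase and 26 of 37 mitotic probes. Young replicate 3 was the lowest young array for 33 of 37 mitotic probes (89.2%, against 43.7% of all probes), whereas replicate 1 was the lowest for 12 of 18 S phase probes. Mki67 probe b shows the order of the mitotic genes, with 1.30, 2.01 and 0.30 in young replicates 1, 2 and 3. With 1 array of 2 months no test of age within the young group can be made, and whether age or the sample sets this order was not tested.

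Many calls were lost when 1 array was left out, while the differences moved less. Birc5 probe a ranged from -4.73 to -4.06 over these fits and Mki67 probe b from -4.14 to -3.29. Without adult replicate 3 no member probe was called lower and 1 was called higher, and without adult replicate 1 there was 1 of each. Without adult replicate 2 the counts were 3 lower and 2 higher, and without young replicate 1, 4 and 2. Without young replicate 2, 12 were lower and 5 higher, and without young replicate 3, 8 and 2. Over all probes 27 were lower and 361 higher without adult replicate 3, against 3094 and 8260 with all arrays. The shares of all probes lower and higher were 0.0826% and 1.03% without adult replicate 1, and 0.217% and 1.39% without adult replicate 2. They were 0.174% and 2.56% without young replicate 1, and 0.413% and 4.67% without young replicate 3. Without young replicate 2 they were 2.94% and 18.4%, so there the higher calls did not shrink. None of the 20 called probes kept its call in all 6 of these fits, and all 20 kept their sign in every alternative that tested them. The counts also moved with the scaling, for the members and for all probes. Quantile normalization gave 24 lower and 3 higher members, against 7.84% and 6.77% of all probes, and median scaling 29 and 3, against 25.2% and 9.96%. Cyclic loess gave 20 and 3, against 5.83% and 7.22%. Normexp with quantile normalization gave 30 and 2, against 13.5% and 11.3%, and the series matrix values 28 and 2, against 12.5% and 11.7%. With the array row as a block 13 were lower and 3 higher, against 2.18% and 11.3%. Within row 1 and row 2, values added after the data were seen and without a test, the difference was -1.41 and -1.32 for Mcm3 probe a, -1.48 and -1.23 for its probe b, and -1.89 and -1.33 for Rrm2. For Tyms it was 1.07 and 1.49, and for Prc1 -3.68 and -1.66. Tyms was not called under any of these scalings, although it stayed above young levels.

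Genes of the same pathways that are not among the 49 also had more lower than higher calls. These lists were chosen with earlier results of these data known, so they are not an independent check. Of 40 probes for 33 other replication genes, 8 were lower and 1 higher (20.0% and 2.5%, against 6.39% and 17.1% of all probes). Of their differences 34 were negative, with a median of -0.67. Their summed signal was 40.3 to 43.7 on adult arrays and 55.8 to 57.4 on young arrays. Those with the smallest p were Rpa1 (-1.42 ± 0.23 SE, adjusted p = 0.0227) and Rpa3 (-1.23 ± 0.22 SE, 0.0250), subunits of the single-strand binding complex, and Fen1, the flap nuclease (-1.0 ± 0.19 SE, 0.0279), all by limma. Another Rpa1 probe differed by -0.76 ± 0.22 SE and was not called (limma adjusted p = 0.0518). Of 39 probes tested for other mitosis genes, 8 were lower and 2 higher (20.5% and 5.13%), with a median of -0.70 over all 41. Their summed signal went the other way, 72.9 to 81.4 on adult arrays and 45.8 to 57.8 on young arrays, with Hmmr the brightest probe at 6.02, 5.76 and 5.96 in adult and 4.76, 4.97 and 4.66 in young cells. Cenpm, a centromere protein, had -2.47 ± 0.36 SE and the checkpoint protein Bub3 -1.19 ± 0.20 SE (limma adjusted p = 0.0197 and 0.0237), while Hmmr, a spindle and hyaluronan-binding protein, rose by 1.12 ± 0.19 SE (0.0247). Cdk1, the kinase of mitotic entry, had probes at -3.62 ± 0.64 SE and -3.06 ± 0.78 SE that were called (limma adjusted p = 0.0250 and 0.0412) and another at 0.68 ± 0.30 SE that was not (0.130); it is named after its values were seen.

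The kinases and pocket proteins around the G1 cyclins gave 7 lower (24.1%) and 0 higher calls by limma of 29 probes tested. Over all probes 6.39% were lower and 17.1% higher. At an unadjusted p under 0.05 there were 9 lower and again 0 higher in this list. Over all probes 21745 of 48414 were under it in either direction. Cdk4, the partner of the D-type cyclins, fell on all 3 of its probes, by 1.10, 1.32 and 1.19 on the log2 scale (limma adjusted p = 0.0279, 0.0253 and 0.0228). On the last of these it read 2.52, 2.76 and 2.40 in adult cells and 3.65, 3.80 and 3.81 in young cells. Tfdp1, the dimer partner of E2F factors, fell by 1.23 ± 0.21 SE and Cdk2 by 1.55 ± 0.34 SE (limma adjusted p = 0.0237 and 0.0326). Another Tfdp1 probe differed by -0.92 ± 0.27 SE and was not called (limma adjusted p = 0.0547). The pocket proteins Rb1 and Rbl2, which hold E2F factors in check, differed by -0.24 ± 0.24 SE and -0.29 ± 0.27 SE and were not called.

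Some marker lists of other cell types and states also differed between the groups, and their part in these differences was not tested. All 14 probes of satellite cell markers were well above background on all 6 arrays, with sums of 79.7 to 114 in adult cells and 113 to 128 in young cells. Itga7, 1 of the sorting antigens, fell by 1.08 ± 0.20 SE (limma adjusted p = 0.0262), and Cdh15 and 1 of 2 Vcam1 probes were called lower too, whereas Pax7, Myf5 and both Cd34 probes were not called (-0.34, -0.37, -0.18 and -0.06). Myogenic commitment markers had 7 lower and 1 higher of 16 probes (43.8% and 6.25%, against 6.39% and 17.1% of all probes). Their sums were 10.2 to 12.1 in adult cells and 55.8 to 79.8 in young cells. Myogenin (Myog), the factor that opens muscle differentiation, read -4.13, -3.40 and -3.91 in adult cells and 1.40, 1.15 and 1.73 in young cells, -5.24 ± 0.28 SE (limma adjusted p = 0.00894).

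Leukocyte markers had 6 of 20 tested probes higher and 0 lower by limma (0 also at an unadjusted p under 0.05), and all 21 differences were positive. For comparison, 17.1% of all probes were higher, with 27.3% in the dimmest bin of brightness and 19.7% in the next. Median differences in those bins were 1.38 and 0.56, and the part of brightness in the leukocyte counts was not tested. The median level of the leukocyte markers was -2.41, -1.90 and -2.05 in adult cells and -3.77, -3.15 and -3.92 in young cells, without overlap. Their sums, 382 to 406 in adult cells and 221 to 427 in young cells, overlapped, but the brightest probe alone read 8.51 to 8.61 in adult and 7.72 to 8.70 in young cells. Tyrobp and S100a8 were well above background on no young array, while Ptprc (CD45), against which the cells were sorted, differed by 0.49 ± 0.34 SE (limma adjusted p = 0.293). Mural cell markers had 5 of 10 probes higher and 1 lower, against 17.1% higher and 6.39% lower over all probes. The mural sums were 74.6 to 80.9 in adult and 66.3 to 84.1 in young cells. Endothelial markers had 1 of 12 higher (8.33%), with sums of 20.2 to 28.0 and 19.6 to 30.5, and Pecam1 (CD31) at -0.81 ± 0.48 SE. Fibro-adipogenic markers had 2 higher and 1 lower of 10 tested, against 17.1% higher and 6.39% lower over all probes. Pdgfra was above background on no array. Their sums were 40.0 to 54.7 in adult and 88.5 to 95.3 in young cells. The brightest probe, Col3a1, read 4.31, 5.25 and 5.05 in adult and 6.13, 5.91 and 5.98 in young cells. Their median levels went the other way from the sums, at -0.51, -0.62 and -0.43 in adult and -1.30, -1.10 and -1.35 in young cells. Erythroid markers had no call in either direction by limma (0 lower and 1 higher at an unadjusted p under 0.05). All 8 of their differences were positive, and the median over all probes of the array was positive too (0.40). Their sums were 50.8 to 81.0 in adult cells and 75.4, 36.9 and 1.77 in young replicates 1, 2 and 3, so young replicate 3, the lowest young array for most mitotic probes, stood apart.

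Promoter windows, from 250 bases before to 50 after the gene start, were searched for motifs known from cell cycle promoters (RefSeq, GRCm38.p6). The cell cycle homology region was searched in its form TTTGAA and in its variant form TTCGAA. The E2F motif was searched in the form TTGGCGC, then in the related form TTCGCGC and in the form spelled TTCCCGC. The third motif was the box CCAAT, and each search covered both strands. The cell cycle homology region was found in 19 of 23 mitotic windows (82.6%), 3 of 13 S phase windows (23.1%), 1 of 5 G1 windows (20.0%) and 19.4% of all 27025 windows. The E2F motif was found in 7 of 13 S phase windows (53.8%), 3 of 23 mitotic windows (13.0%), 2 of 5 G1 windows (40.0%) and 8.21% of all windows. CCAAT was found in 19 of 23 mitotic (82.6%), 9 of 13 S phase (69.2%), 2 of 5 G1 (40.0%) and 37.9% of all windows. A match describes the letters of the window and shows no binding.

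**Figure D5:**
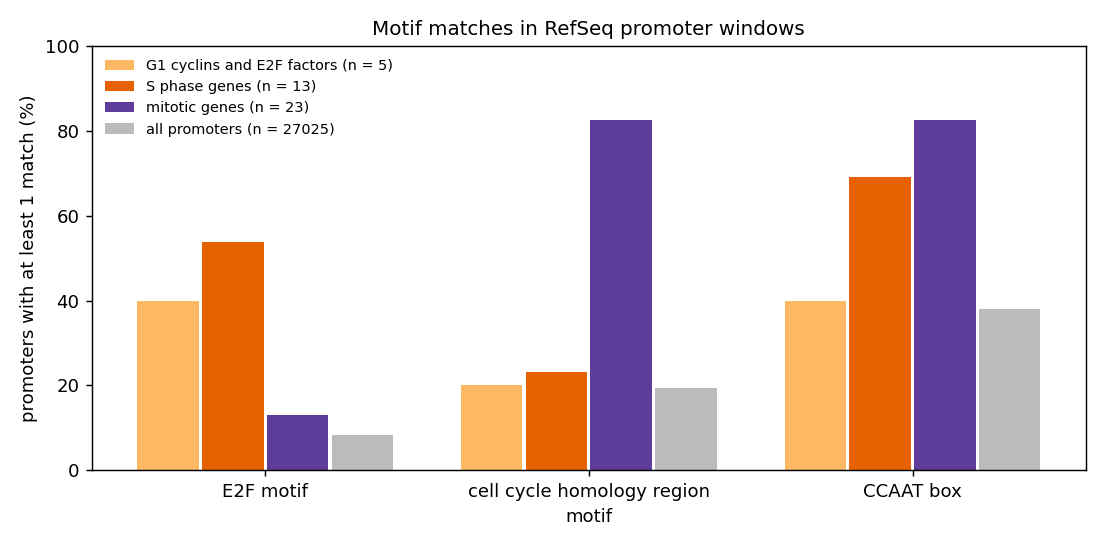
Share of promoter windows with at least 1 match of each motif, in percent, for the 3 groups of member genes and for all windows, with the number of windows in the legend. The cell cycle homology region stands out in mitotic windows (82.6 against 19.4 for all windows) and the E2F motif in S phase windows (53.8 against 8.21).

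The windows of 4 genes are shown on their own strand, 5′ to 3′, with every match on either strand in capitals. Mcm2 and Mcm3 were lower and Cenpf higher in adult cells, and Mki67, added after its values were seen, had the probes that disagreed. Mcm2 holds 1 cell cycle homology region and 1 CCAAT, and Mcm3 holds 3 E2F matches and 3 CCAAT. Cenpf holds 1 cell cycle homology region and 2 CCAAT, and Mki67 holds 2 cell cycle homology regions, 1 E2F match and 3 CCAAT. In the Mcm3 window the TTGGCGC matches of the 2 strands overlap each other.
Mcm2 promoter, GRCm38.p6 chr6:88898731-88899030, minus strand: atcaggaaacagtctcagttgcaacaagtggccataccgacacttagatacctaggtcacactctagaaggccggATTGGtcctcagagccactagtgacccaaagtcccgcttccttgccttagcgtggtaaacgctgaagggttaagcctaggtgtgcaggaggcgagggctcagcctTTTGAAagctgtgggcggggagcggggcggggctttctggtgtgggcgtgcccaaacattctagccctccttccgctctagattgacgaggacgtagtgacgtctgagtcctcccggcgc
Mcm3 promoter, GRCm38.p6 chr1:20820263-20820562, minus strand: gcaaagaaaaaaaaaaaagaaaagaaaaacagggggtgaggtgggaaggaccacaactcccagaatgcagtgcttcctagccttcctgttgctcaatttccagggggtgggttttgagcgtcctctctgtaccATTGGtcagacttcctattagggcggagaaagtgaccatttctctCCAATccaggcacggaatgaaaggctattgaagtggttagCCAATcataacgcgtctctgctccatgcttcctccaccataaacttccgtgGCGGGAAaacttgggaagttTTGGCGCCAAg
Cenpf promoter, GRCm38.p6 chr1:189688037-189688336, minus strand: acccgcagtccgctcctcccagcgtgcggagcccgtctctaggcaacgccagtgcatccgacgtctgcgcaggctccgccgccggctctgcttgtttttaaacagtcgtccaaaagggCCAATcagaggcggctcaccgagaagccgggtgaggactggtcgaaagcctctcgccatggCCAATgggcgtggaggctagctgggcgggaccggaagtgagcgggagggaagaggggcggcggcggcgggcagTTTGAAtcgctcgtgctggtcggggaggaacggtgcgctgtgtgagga
Mki67 promoter, GRCm38.p6 chr7:135716330-135716629, minus strand: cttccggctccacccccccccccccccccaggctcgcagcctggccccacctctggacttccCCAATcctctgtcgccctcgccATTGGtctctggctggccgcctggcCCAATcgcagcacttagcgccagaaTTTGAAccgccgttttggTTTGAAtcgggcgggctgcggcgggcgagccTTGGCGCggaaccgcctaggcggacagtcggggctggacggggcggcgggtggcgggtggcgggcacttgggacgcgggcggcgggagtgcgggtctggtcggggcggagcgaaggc
The windows of Tyms, Birc5 and Nuf2 hold no match of these motifs and are not shown. Among the mitotic members with a lower call, Mki67 (called on 1 of 2 probes), Cdca3, Prc1 and Ect2 thus hold the cell cycle homology region and Birc5 does not. Among those with a higher call, Cenpf holds it and Nuf2, called on 1 of 2 probes, does not.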

How the data were processed

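Per the file headers, spots were read with Agilent Feature Extraction 10.7.3.1, and the deposited 1-colour processed signal is a background-corrected fluorescence intensity. Spots of a probe that were neither controls (3671 of 62976 spots) nor outliers were averaged, taken to log2 and set relative to the 75th percentile of their array. The fit covered 48414 of 55681 probes, those detected well above background on 3 or more of 6 arrays, and was made with limma 3.58.1 (lmFit and eBayes, R 4.3.3), with Benjamini-Hochberg adjustment over all of them and a threshold of 0.05. No exact permutation test was used, since 3 against 3 cannot go below 0.1. No member spot was saturated. Between 41528 and 49957 probes were well above background per array, and the number of arrays limits the precision. The deposited series matrix holds log2 values by the authors, within 0.000106 of normexp background correction (offset 50) followed by quantile normalization of the same arrays.

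Groups follow the sample titles. The titles number the replicates but name no pairing, so the main fit used none. Same-number correlations were -0.0087, -0.0873 and -0.127, which cannot decide on pairing with 3 arrays per group. The members and the 10 other gene lists were chosen with earlier results of these data known. Values on every array are given for each called probe and for at least the 3 genes of smallest p in each role, and each member whose probes disagree is named; in the other pathway lists the 3 genes of smallest p are named, and others only as examples chosen after their values were seen. Promoters follow the 3 S phase and 3 mitotic genes of smallest p past the threshold. RefSeq windows matched 41 of 49 members, with the first window per symbol; Tpx2, Aurkb, Ccna2, Ccne2, Ccnd1, Ccnd2, Mcm4 and Gmnn were not matched. Alternatives were other scalings, filters, moderation, blocks and each array left out. The fit was tested on simulated data. Results of some genes in the other lists are not reported here.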

Additional observations from a re-analysis of the deposited data

How the results depend on the processing

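Counts of member probes called, lower then higher in adult cells, were 4 and 1 for G1, 5 and 1 for S phase and 7 and 2 for mitotic genes. They did not move when no filter was used or when the 75th percentile was taken over probes above background on all arrays, and the G1 counts moved by less than 1.5 times under every alternative with all 6 arrays but the replicate block. S phase lower calls numbered 8 with quantile normalization, 10 with median scaling, 9 with normexp, 8 with the series matrix values, 8 with trended, robust moderation and 2 with the array row as a block. S phase higher calls were 0 with each of these but the moderation, and 0 with cyclic loess. Mitotic lower calls numbered 13, 14, 17 and 16 with quantile, median, normexp and series matrix values, and 11 with cyclic loess. Mitotic higher calls were 1 with normexp, series matrix values or the brightest probe per gene, and 0 where a probe had to be above background on all 6 arrays. The median over all probes was 0.29 with the 75th percentile, -0.12 with quantile normalization, -0.25 with median scaling, -0.02 with cyclic loess, -0.07 with normexp and -0.05 with the series matrix.

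With the replicate block limma called 0 member probes in each role and 0 of all probes. At an unadjusted p under 0.05, 22 of 59 members were lower and 4 higher, against 18048 of all 48414 probes in either direction. Whether the replicate numbers pair the samples is not known. With 1 array left out, counts ranged from 0 to 3 lower and 0 to 1 higher for G1, 0 to 3 and 0 to 1 for S phase, and 0 to 6 and 1 to 3 for mitotic genes. These fits have fewer samples, and the cause of the other shifts was not tested.

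Over the 59 member probes tested, signs turned only for 11 without a call. With quantile, median, cyclic loess, normexp and series matrix values Ccne1 probe a gave -0.45, -0.45, -0.26, -0.37 and -0.34, E2f8 -1.33, -0.23, -0.88, -0.34 and -0.31, Mki67 probe a -0.17, -0.47, -0.0017, -0.0651 and -0.0349, Plk1 -0.24, -0.20, -0.0610, -0.24 and -0.22, and Cenpe -0.46, -0.52, -0.30, -0.41 and -0.38. Cdc45 gave -0.13 with median scaling, Ccne1 probe b 0.12 with the percentile of probes above background, and Cenpe -0.0289 and Nuf2 probe a 0.0660 with the array row as a block. With each array left out in turn, Ccne1 probes a and b ranged from -0.37 to 0.66 and -0.74 to 0.95, E2f8 from -0.29 to 0.68, Mki67 probe a from -0.43 to 0.48, Bub1b from -1.18 to 0.27, Plk1 from -0.16 to 0.59, Cenpe from -0.25 to 0.19, Ube2c probe a from -0.77 to 0.12, Ttk from -1.34 to 0.92 and Nuf2 probe a from -0.88 to 0.28. Of 1034 comparisons of single probes, 808 kept sign and side of the threshold, 114 lost a call, 63 gained one and 49 turned sign. Dim signal limits Cenpf, Nuf2 probe b, Cdca3 and Top2a, which have only a bound in 1 group.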
